A study of Mus musculus and Homo sapiens with 14 samples.

Results

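CCL3, CCL4 and CCL5 are secreted CC chemokines, 3 genes of the 27945 entries with a symbol in the human count table and, as Ccl3, Ccl4 and Ccl5, 3 of the 26221 in the mouse table. They were taken by symbol and selected on the CCL3 counts, which were lower in MM.1S myeloma cells given a guide RNA against IRF4. The MM.1S values of all 3 genes and of their near-identical copies are therefore given as a description without a test, whereas the mouse libraries took no part in the choice. All 3 symbols were found in both tables.

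The series used RNA sequencing of 14 libraries to ask what the transcription factor IRF4 does in plasma cells that have already formed. Splenic plasma cells of donor origin came from C57BL/6 mice labelled Irf4 flox/- or Irf4 flox/+ (2 libraries each). Bone marrow of either genotype had been given to congenic hosts together with uMT bone marrow, which forms no B cells of its own. Both genotypes received tamoxifen on days 1, 2, 7 and 8 and were harvested on day 14, so both groups share the drug and a floxed allele and differ in the other Irf4 allele. The Cre driver and the age of the mice are not given in the sources used here. In 2 lines, the plasmacytoma MPC-11 from mouse (labelled C57BL/6) and the myeloma MM.1S from human, Cas9 was delivered with an IRF4 guide (genotype label Irf4 -/-) or with an empty vector (label WT), and cells were sorted on day 3 after doxycycline, 2 libraries per condition. Bone marrow plasma cells and splenic follicular B cells from WT C57BL/6 mice had 1 library each. No label ties replicates to separate animals or cultures, so p-values measure only the spread between these samples.

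Libraries held 18738283 to 27003585 counts in mouse and 19317115 to 21572315 in MM.1S. Values are CPM, counts scaled to the size of the library after TMM scaling over all libraries of a species, a scaling that takes out differences in composition. TMM factors spanned 0.994 to 1.01 in MM.1S but 0.432 to 2.00 in mouse, so raw counts are given beside mouse CPM. IRF4 itself was lower with the guide in MM.1S, where it stood at 142 and 191 CPM against 489 and 434 CPM with the empty vector, and in MPC-11, where Irf4 stood at 171 and 89.1 CPM against 295 and 302 CPM. In the spleen, Irf4 stood at 133 and 159 CPM in the libraries labelled flox/- and at 180 and 87.2 CPM in those labelled flox/+, which overlap. Scaled to library size alone it stood at 104 and 147 CPM with flox/- and 87.9 and 37.7 CPM with flox/+, so flox/- then lay wholly above, the opposite side to its label. Below, flox/- and flox/+ name the labels of the libraries. Which exons are floxed is not given in the sources used here, so a count over the whole gene checks those labels only in part. All 8 plasma cell markers had counts in every MM.1S library. Of these 5 were lower and 3 higher with the guide, 0 past edgeR's test (all genes 0.00788% lower and 0% higher). DESeq2 called 3 lower, among them IRF4, and 0 higher (all genes 1.4% and 1.52%). SLAMF7 stood at 536 and 427 CPM with the guide and 909 and 788 CPM with the empty vector. JCHAIN went the other way, with 7310 and 8323 CPM with the guide and 3842 and 5711 CPM with the empty vector (edgeR adjusted p = 0.340, DESeq2 adjusted p = 0.0730). XBP1 and MZB1, also counted as higher, hardly differed. Of the B cell markers PAX5, MS4A1, CD22, FCER2 and IGHD were at 0, while CR2 (33.5 to 58.6 CPM), CIITA (4.09 to 19.5 CPM) and BACH2 (5.22 to 18.7 CPM) had counts in every library.

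Chemokines of this family are small secreted proteins that bind G protein-coupled receptors and draw leukocytes along a gradient. CCR1 is a receptor of CCL3 (MIP-1α), and CCR1 and CCR3 are receptors of CCL5 (RANTES), while CCL4 (MIP-1β) is a close relative of CCL3. CCL3 and CCL4 are made by activated macrophages and lymphocytes, CCL5 by T and NK cells among others. Myeloma cells are known to secrete CCL3, which promotes the formation of bone-resorbing osteoclasts.

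In mouse the genes lie on chromosome 11 of mm10, per GENCODE: Ccl5 from 83525778 to 83530518 and Ccl3 from 83647844 to 83649355, both on the minus strand, and Ccl4 from 83662584 to 83664683 on the plus strand. GENCODE's exons of Ccl3 and Ccl4 share 0 bases, whereas RefSeq's span of Ccl4 starts at 83648624, inside Ccl3 on the opposite strand. The strand setting of the authors' counting is not given in the sources used here, so a few reads of one could have gone to the other. Of the 3 mouse genes, 1 had an entry in RefSeq's promoter table (GRCm38.p6), Ccl3. The 250 bases before its RefSeq start, chr11:83649379-83649628 on the minus strand, are shown because the series is about IRF4, which binds DNA with an ETS factor or at interferon-type elements. Capitals mark GGAA or its complement TTCC, the core bound by ETS factors such as PU.1.
Ccl3 promoter: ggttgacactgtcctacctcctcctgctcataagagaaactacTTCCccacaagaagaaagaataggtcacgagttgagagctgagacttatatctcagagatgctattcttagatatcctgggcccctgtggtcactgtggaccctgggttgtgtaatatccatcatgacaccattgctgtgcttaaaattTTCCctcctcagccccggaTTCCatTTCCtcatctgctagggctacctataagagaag
On both strands the ETS core was found 4 times, a motif present in 93.4% of the 32851 mouse promoter windows of this length. The interferon-type element GAAANNGAA was found once, starting at base -39 and overlapping a pair of the ETS cores, and 7.13% of windows hold it. Extended by a further A it was found 0 times, against 2.98% of windows. The letters GGAANNGAA (ETS-IRF composite, which contains the ETS core, in 6.99% of windows), GGNNNTTCC (kappaB, which also contains it, 15.7%) and TGANTCA (AP-1, 6.75%) were found 0 times. These matches describe the letters only.

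In MM.1S, CCL3 was one of the most abundant transcripts of the line with the empty vector and was about an order of magnitude lower with the IRF4 guide, CCL4 was lower as well, and CCL5 was not. CCL3 (Entrez 6348) had 8487 and 5656 counts with the guide and 82807 and 55279 with the empty vector, which is 439 and 261 CPM with the guide and 3863 and 2865 CPM with the empty vector. Both guide libraries lay far below both empty vector libraries. The means were 350 ± 126 CPM with the guide and 3364 ± 706 CPM with the empty vector (SD, n = 2 each). In the edgeR fit the log2 fold change was -3.26 ± 0.30 (SE), or 9.60-fold lower. Counted as a share of the library, CCL3 took 0.0437% and 0.0264% of all counts with the guide and 0.384% and 0.286% with the empty vector.

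The deposited log2 FPKM values, which are scaled to gene length and so allow genes to be compared, placed CCL3 at 9.11 and 8.36 with the guide and at 12.22 and 11.93 with the empty vector. By that level it ranked 104th and 196th of 12731 listed genes with the guide, and 7th and 11th with the empty vector. With the guide, CCL4 had log2 FPKM levels of 4.14 and 3.18 and CCL5 of 5.38 and 4.70. With the empty vector, CCL4 stood at 6.49 and 6.10 and CCL5 at 5.29 and 5.0. Without its near-identical copy CCL4L2, CCL4 was above CCL5 with the empty vector and below it with the guide, in both libraries of each. CCL3 stayed far above both. CCL4L2 itself stood at 5.39 and 4.45 with the guide and at 6.32 and 5.47 with the empty vector. Reads could have been split between CCL4 and CCL4L2, so the order of CCL4 and CCL5 with the guide is uncertain.

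CCL4 (Entrez 6351) had 235 and 131 counts with the guide and 1267 and 875 with the empty vector, or 12.2 and 6.06 CPM with the guide and 59.1 and 45.3 CPM with the empty vector. Again the groups did not overlap. The log2 fold change was -2.52 ± 0.40 (SE), 5.74-fold lower. CCL5 (Entrez 6352) had 1053 and 748 counts with the guide and 1096 and 801 with the empty vector, or 54.5 and 34.6 CPM with the guide and 51.1 and 41.5 CPM with the empty vector. Here the guide libraries lay on either side of the empty vector libraries, with a log2 fold change of -0.06 ± 0.30 (SE).

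**Figure D1:**
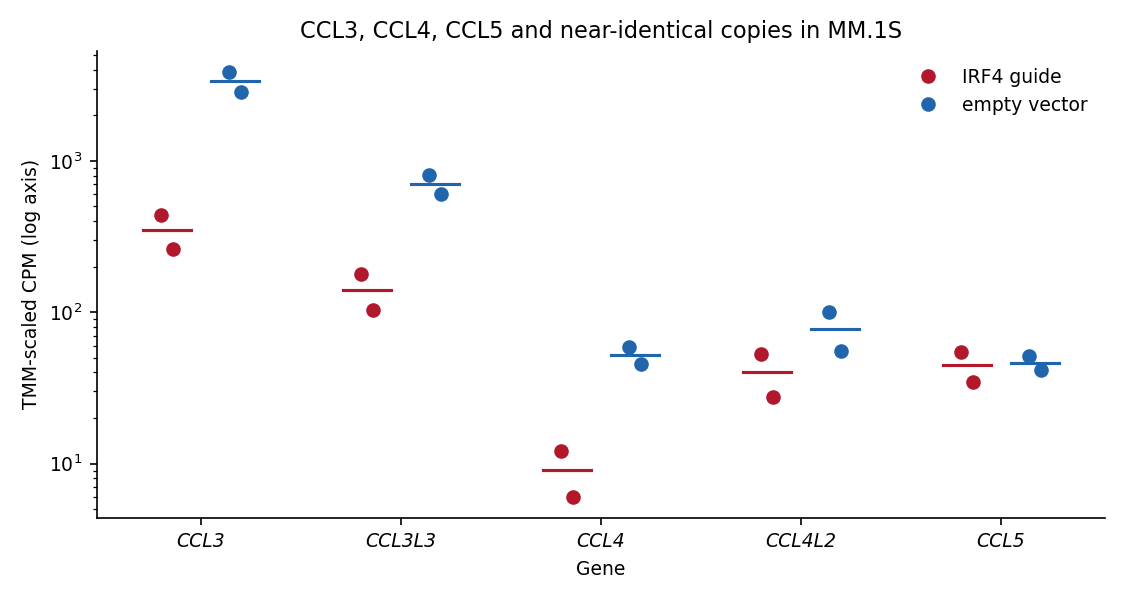
TMM-scaled CPM (log axis) of CCL3, CCL3L3, CCL4, CCL4L2 and CCL5 in MM.1S with the IRF4 guide (red) and the empty vector (blue); points are libraries and bars group means. CCL3 averaged 350 CPM with the guide and 3364 CPM with the empty vector, while the CCL5 groups overlap.

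Of the 3 genes, 2 had guide libraries that lay wholly below the empty vector libraries, in a comparison where 18.9% of 12696 tested genes did so and 22.4% did the reverse. At an adjusted p under 0.05, edgeR called 0.00788% of tested genes lower (1 gene, which was no chemokine) and DESeq2 called 1.4% lower. At an unadjusted p under 0.05 edgeR had 5.42% of genes higher and 4.58% lower. Since this contrast chose the genes, nothing is read from these counts. From the lowest log2 fold change upward, CCL3 came 68th, CCL4 107th and CCL5 5645th of the 12696. Among the 2214 genes with a mean of at least 100 CPM, CCL3 came second. Leaving out each library in turn moved the CCL3 log2 fold change between -3.69 and -2.95 and that of CCL4 between -3.11 and -2.11. For CCL5 the range was -0.42 to 0.22.

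The human genome holds near-identical copies of CCL3 and CCL4, and reads that match a gene and its copy alike could have been split between them, so the single values are uncertain. The table lists CCL3L3, a copy of CCL3, and CCL4L2, a copy of CCL4. CCL3L3 (Entrez 414062) stood at 178 and 104 CPM with the guide and 800 and 603 CPM with the empty vector. Its log2 fold change was -2.32 ± 0.31 (SE). CCL4L2 (Entrez 9560) stood at 52.6 and 27.7 CPM with the guide and 99.8 and 55.6 CPM with the empty vector. Its log2 fold change was -0.95 ± 0.41 (SE). Both copies had non-overlapping groups, although for CCL4L2 the nearest libraries were 52.6 and 55.6 CPM.

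Summed with its copy, which removes any split between them, CCL3 plus CCL3L3 stood at 617 and 365 CPM with the guide and 4663 and 3468 CPM with the empty vector, a log2 ratio of group means of -3.05. The sum of CCL4 and CCL4L2 stood at 64.8 and 33.8 CPM with the guide and 159 and 101 CPM with the empty vector, a log2 ratio of -1.40. The copies took a larger share with the guide. CCL3L3 made up 28.8% and 28.4% of the CCL3 plus CCL3L3 counts with the guide and 17.2% and 17.4% with the empty vector. CCL4L2 made up 81.2% and 82.1% of the CCL4 plus CCL4L2 counts with the guide and 62.8% and 55.1% with the empty vector. Each share was higher in both guide libraries than in either empty vector library, so a gene and its copy were not lower in proportion. How the authors' counting treated reads matching several places is not given in the sources used here, and its part in the shares was not tested.

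**Figure D2:**
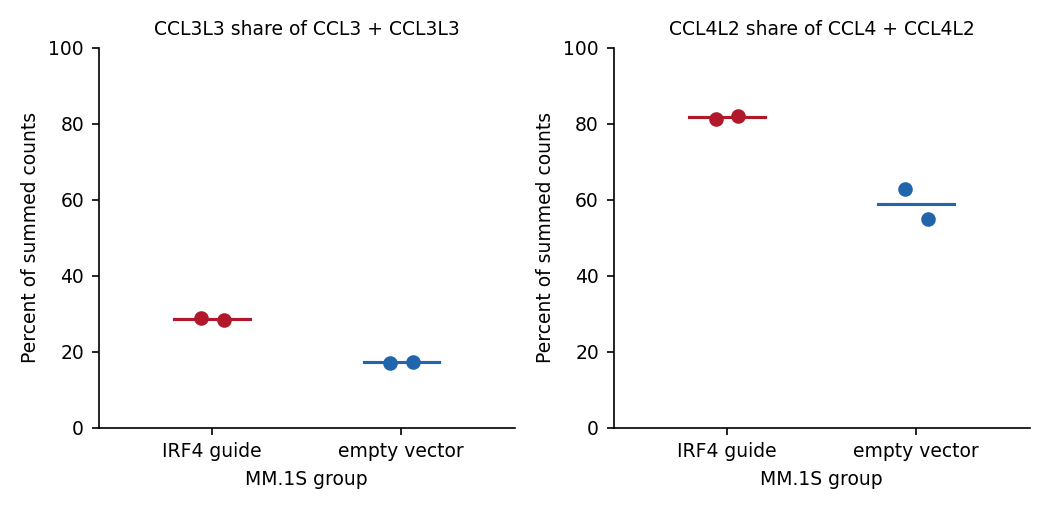
Percent of the summed counts of a gene and its copy that fell on the copy, CCL3L3 at left and CCL4L2 at right, with the IRF4 guide (red) and the empty vector (blue); points are MM.1S libraries and bars group means. The CCL3L3 share averaged 28.6% with the guide and 17.3% with the empty vector.

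The ratios between the 3 genes differed between groups as well. The ratio of CCL3 counts to CCL4 counts, not corrected for length, was 36.1 and 43.2 with the guide and 65.4 and 63.2 with the empty vector. The ratio of CCL3 to CCL5 counts was 8.06 and 7.56 with the guide and 75.6 and 69.0 with the empty vector. Neither ratio overlapped between groups.

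Genes with the profile nearest to each chemokine were sought over the 4 MM.1S libraries, by the root mean square difference of log2(CPM + 1) centred on each gene's mean, among 11787 genes of at least 1 CPM. Nearest to CCL3 were SMOC1, a secreted matrix protein (0.29 log2 units), CYP26A1, the enzyme that degrades retinoic acid (0.32), MVB12B, a subunit of an endosomal sorting complex (0.33), CCL4 (0.42) and the caveolin CAV2 (0.44). The CCL3 profile itself spread by 1.67 log2 units around its mean. CYP26A1 stood at 25 and 19.5 CPM with the guide and 338 and 315 CPM with the empty vector. Nearest to CCL4 were CCL3L3 (0.07 log2 units), CAV2 (0.19), the small GTPase RAB33A (0.24), the transporter SLC4A11 (0.25) and MVB12B (0.26). Some of these neighbours were barely detected with the guide. There SMOC1 stood at 0.672 and 0.324 CPM, MVB12B at 0.983 and 0.416, RAB33A at 0.621 and 0.0462 and SLC4A11 at 0.310 and 0. At such levels the 1 added to CPM narrows a fall, so a small distance does not mean an equal fold. Nearest to CCL5 were HSBP1L1 (0.04), the ribosome rescue factor PELO (0.04), the trafficking gene VIPAS39 (0.05), the RNA-binding gene TIAL1 (0.05) and the sugar enzyme gene GALM (0.05). The CCL5 profile spread by only 0.25 log2 units, so many flat genes lie near it.

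Receptors of these chemokines were measured in the same cells. CCR1, the main receptor of CCL3 and CCL5 on myeloid cells, stood at 256 and 263 CPM with the guide and 291 and 293 CPM with the empty vector. Its log2 fold change of -0.17 ± 0.18 (SE) had an edgeR adjusted p of 0.854. Its groups did not overlap, with the guide below as for 18.9% of tested genes, but lay close together. CCR3, a receptor for CCL5, stood at 10.8 and 4.25 CPM with the guide and 4.43 and 2.23 CPM with the empty vector (log2 fold change 1.17 ± 0.69, SE; edgeR adjusted p = 0.681). The scavenging receptor ACKR2 had at most 1.04 CPM in any library and was not tested. So MM.1S carried transcripts of a CCL3 receptor, CCR1, beside CCL3 itself, and neither CCR1 nor CCR3 passed in edgeR, had an unadjusted p under 0.05 or passed in DESeq2.

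Few other chemokines were expressed in MM.1S. Of 21 other CC chemokines 15 had no count in any of the 4 libraries, and the single one tested, the T cell chemokine CCL1, stood at 1.55 and 1.80 CPM with the guide and 1.03 and 0 CPM with the empty vector (edgeR adjusted p = 0.851; unadjusted p of 0 genes under 0.05, and 0 called by DESeq2). Of 19 CXC, XC and CX3C chemokines 12 had no count and 2 were tested. CXCL10, an interferon-induced ligand of CXCR3, stood at 42.7 and 21.9 CPM with the guide and 4.66 and 11 CPM with the empty vector (log2 fold change 2.05 ± 0.53, SE; edgeR adjusted p = 0.310, DESeq2 adjusted p = 0.0174). CXCL16, a membrane-bound ligand of CXCR6, stood at 90.0 and 70.1 CPM with the guide and 44.7 and 34.6 CPM with the empty vector (log2 fold change 1.01 ± 0.26, SE; edgeR adjusted p = 0.310, DESeq2 adjusted p = 0.0306). For either gene the guide libraries lay above the empty vector libraries, the opposite side from CCL3 and CCL4. The same held for 22.4% of the 12696 tested genes. The background in edgeR was 0% of genes called higher, and in DESeq2 1.52%.

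Among 7 tested receptors of other chemokines, CX3CR1, the receptor of CX3CL1, stood at 37.8 and 40.3 CPM with the guide and 7.70 and 3.78 CPM with the empty vector (log2 fold change 2.76 ± 0.41, SE; edgeR adjusted p = 0.199, DESeq2 adjusted p = 1.34e-06). CXCR3, the receptor of CXCL10, stood at 69.9 and 55.8 CPM with the guide and 127 and 156 CPM with the empty vector (log2 fold change -1.17 ± 0.23, SE; edgeR adjusted p = 0.239, DESeq2 adjusted p = 5.21e-04). CCR10, a homing receptor of plasma cells, stood at 106 and 102 CPM with the guide and 118 and 149 CPM with the empty vector (edgeR adjusted p = 0.681). None of the 7 passed in edgeR, with 1 higher and 1 lower at an unadjusted p under 0.05 and the same number each way in DESeq2 (median log2 fold change -0.19).

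**Figure D3:**
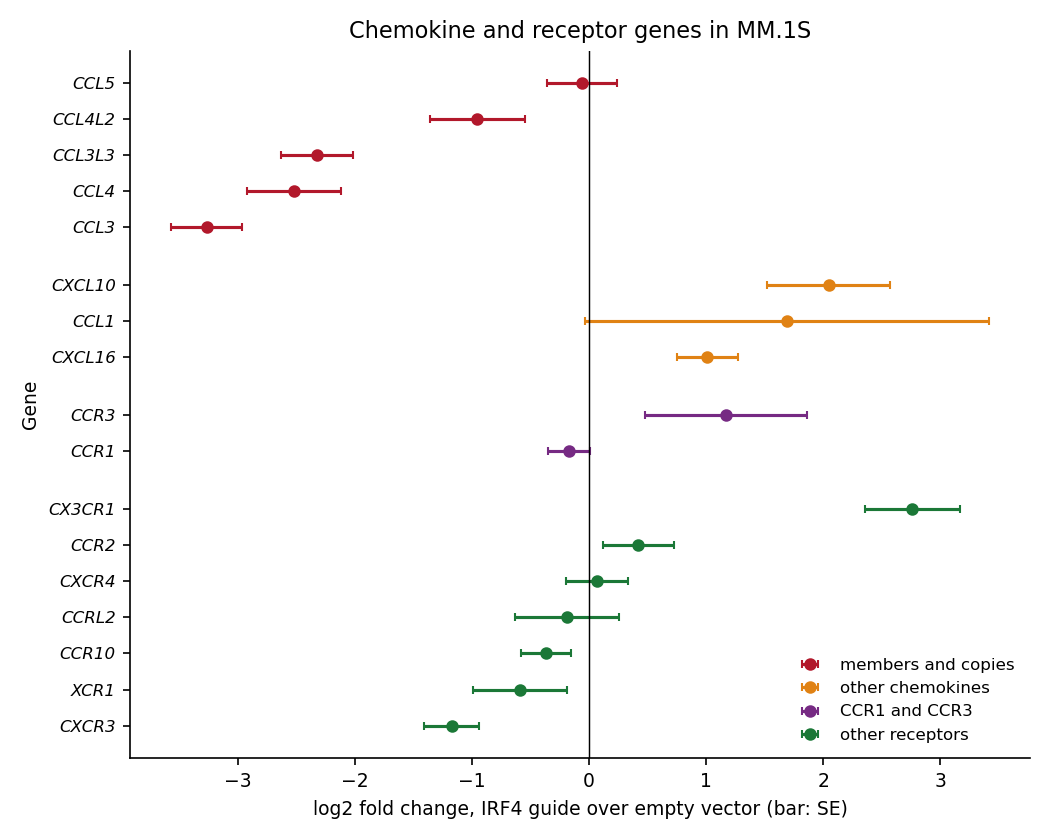
Log2 fold change (IRF4 guide over empty vector, with SE) of CCL3, CCL4, CCL5 and the copies CCL3L3 and CCL4L2 (red), the tested other chemokines (orange), the receptors CCR1 and CCR3 (purple) and other chemokine receptors (green) in MM.1S. CCL3 lies at -3.26 and CX3CR1 at 2.76, while CCR1 lies at -0.17.

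Genes of pathways known to drive these chemokines elsewhere were read from lists chosen with earlier results of these data known. Their counts stand beside 5.42% of all genes higher and 4.58% lower at an unadjusted p under 0.05 in edgeR, and 1.52% and 1.4% called by DESeq2. Whatever their p-value, 50.7% of all tested genes were higher. Of 14 tested genes of NF-kB subunits and feedback, 10 were higher and 4 lower (median log2 fold change 0.18, against 0.01 over all genes). None passed in edgeR, with 3 higher and 0 lower at an unadjusted p under 0.05. The adhesion gene ICAM1 stood at 194 and 135 CPM with the guide and 81.2 and 45.9 CPM with the empty vector (edgeR adjusted p = 0.305, DESeq2 adjusted p = 0.00537). NFKBIA and TNFAIP3, feedback inhibitors of the pathway, had log2 fold changes of 0.67 ± 0.25 and 0.52 ± 0.22 (SE; edgeR adjusted p = 0.442 and 0.497). Of 13 tested immediate early genes, 6 were higher and 7 lower (median -0.11), with 0 at an unadjusted p under 0.05 in edgeR and 0 called by either tool. Those with the smallest p-values were NR4A1 (log2 fold change -1.11 ± 0.64, SE), JUND (-0.52 ± 0.30) and MYC (0.37 ± 0.25).

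Of 14 transcription factors linked to chemokine genes, 9 were higher and 5 lower (median 0.40), and 0 passed in edgeR, with 2 each way at an unadjusted p under 0.05. DESeq2 called IRF4 itself and no other. After IRF4, the smallest p-values were those of SPI1, which encodes PU.1, an ETS factor that binds DNA with IRF4, and of PRDM1, the plasma cell regulator BLIMP-1. SPI1 stood at 36.5 and 38.4 CPM with the guide and 19.1 and 10.1 CPM with the empty vector (edgeR adjusted p = 0.314, DESeq2 adjusted p = 0.0564), and PRDM1 at 144 and 127 CPM with the guide and 246 and 175 CPM with the empty vector (edgeR adjusted p = 0.431). BCL6, known to repress CCL3 in B cells, had at most 3.37 CPM in any library. Of 6 tested bone disease factors of myeloma, 2 were higher and 4 lower (median -0.32), and 0 passed in either tool, with 0 at an unadjusted p under 0.05. DKK1, an inhibitor of bone formation, stood at 2.84 and 0.277 CPM with the guide and 11.3 and 4.25 CPM with the empty vector (log2 fold change -2.32 ± 1.10, SE; edgeR adjusted p = 0.571). MMP9, a matrix protease, had a log2 fold change of 2.57 ± 1.57 and ANXA2, an annexin, one of -0.32 ± 0.20 (SE; edgeR adjusted p = 0.696 and 0.701). Over all 8 lists together, 60 genes were tested and 0 passed in edgeR in either direction, with 8 higher and 3 lower at an unadjusted p under 0.05 (all genes 5.42% and 4.58%). DESeq2 called 4 higher and 2 lower (all genes 1.52% and 1.4%). IRF4, the target of the guide, is among the lower genes in both counts.

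In mouse cells Ccl3 and Ccl4 were near or below detection, with at most 2.18 CPM in any of the 10 libraries, whereas Ccl5 was well measured in MPC-11 and follicular B cells. Ccl3 (Entrez 20302) and Ccl4 (Entrez 20303) had 0 counts in all 4 MPC-11 libraries, which allows up to 0.108 CPM in the shallowest of them by effective size (a floor of 3 counts per library, covering counting error only). The mouse tumour line therefore had no detectable transcript of the chemokine that MM.1S carried at 3863 and 2865 CPM with the empty vector. No fold can be given for either gene in MPC-11. In the single library of bone marrow plasma cells both were also at 0, with a floor of 0.272 CPM. Ccl3 had 18 counts in follicular B cells (0.457 CPM, exact 95% Poisson interval 0.271 to 0.722), where Ccl4 had 0 (floor 0.0761 CPM).

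Ccl5 (Entrez 20304) was the member seen most widely in mouse. In MPC-11 it had 118 and 229 counts with the guide and 128 and 118 with the empty vector, or 3.38 and 7.88 CPM with the guide and 3.09 to 4.60 CPM with the empty vector. A single guide library stood above the others, and the groups overlapped. The deposited log2 FPKM levels of Ccl5 were 4.1 and 5.11 with the guide and 4.53 and 4.03 with the empty vector, ranks 4286 and 2587 with the guide and 3607 and 4390 with the empty vector of 14704 listed genes, and in follicular B cells it had a level of 4.94, rank 2757. The log2 fold change was 0.57 ± 0.73 (SE, n = 2 each; edgeR adjusted p = 1.00, DESeq2 adjusted p = 0.999), with a 95% interval of -1.15 to 2.28, which spans changes in both directions. Without guide library 2 the direction turned to -0.19. In this comparison edgeR called 0.0187% of 10670 genes higher and 0% lower. DESeq2 called 1.03% higher and 0.469% lower, and at an unadjusted p under 0.05 edgeR had 3.49% higher and 2.56% lower. T cell markers summed to between 0.830 and 13.8 CPM in MPC-11 (1 to 3 of 10 with counts) and NK cell markers to between 0 and 1.65 CPM (0 or 1 of 10). Most of the T cell sums was Cd28, at 0.830 and 10.1 CPM with the guide and 13.4 and 10.3 CPM with the empty vector. Cd3d (13 counts), Cd3g (27) and Lck (1) had counts in a single library each, and Klrk1 had 46 and 8 counts with the empty vector. The other listed T and NK cell markers were at 0 in all 4 MPC-11 libraries. The part of such cells in the Ccl5 values was not tested.

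In splenic plasma cells the 3 chemokines had more counts in both libraries labelled flox/- than in the flox/+ libraries, and none passed the test. Ccl3 had 23 and 13 counts in the flox/- libraries and 0 in both flox/+ libraries, or 1.14 and 0.649 CPM with flox/-, at least 6.72-fold higher against a floor of 3 counts over the flox/+ group (edgeR adjusted p = 0.299; DESeq2 adjusted p = 0.551). With scaling to library size alone this bound was 12.5-fold. Ccl3 passed the filter on low counts only through the group in which it is high, so it had to differ. Ccl4 had 44 and 15 counts in the flox/- libraries and 0 and 12 in the flox/+ libraries, or 2.18 and 0.749 CPM with flox/- and 0 and 1.03 CPM with flox/+. After scaling the groups overlapped. The log2 fold change was 1.5 ± 1.79 (SE), with a 95% interval of -2.98 to 5.98 and an edgeR adjusted p of 0.848.

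Ccl5 had 138 and 45 counts in the flox/- libraries and 0 and 23 in the flox/+ libraries, or 6.85 and 2.25 CPM with flox/- and 0 and 1.97 CPM with flox/+. The groups did not overlap, but the lower flox/- library and the higher flox/+ library were close. The log2 fold change was 2.21 ± 1.80 (SE; edgeR adjusted p = 0.752, DESeq2 adjusted p = 0.788; 95% interval -2.31 to 6.72). Leaving out Ccl3, whose direction the filter fixed, Ccl5 had non-overlapping groups with flox/- above, as had 26% of 11887 tested genes, while 18.1% did the reverse. Scaled to library size alone, Ccl4 did not overlap either, with 1.71 and 0.692 CPM with flox/- and 0 and 0.444 CPM with flox/+. edgeR called 0 of the 3 and 0% of all genes in either direction, while 8.63% of all genes were higher and 3.85% lower at an unadjusted p under 0.05. Ccl3 is not counted there either. DESeq2 called 0 of the 3 and 3.63% of all genes higher (1.69% lower). All flox/+ counts of Ccl4 and Ccl5 came from library b. Without it the log2 fold changes, then fitted against 0 counts, were 7.64 for Ccl4 and 9.27 for Ccl5 (edgeR adjusted p = 0.533 and 0.326), and without other libraries they went down to 0.52 and 1.2.

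**Figure D4:**
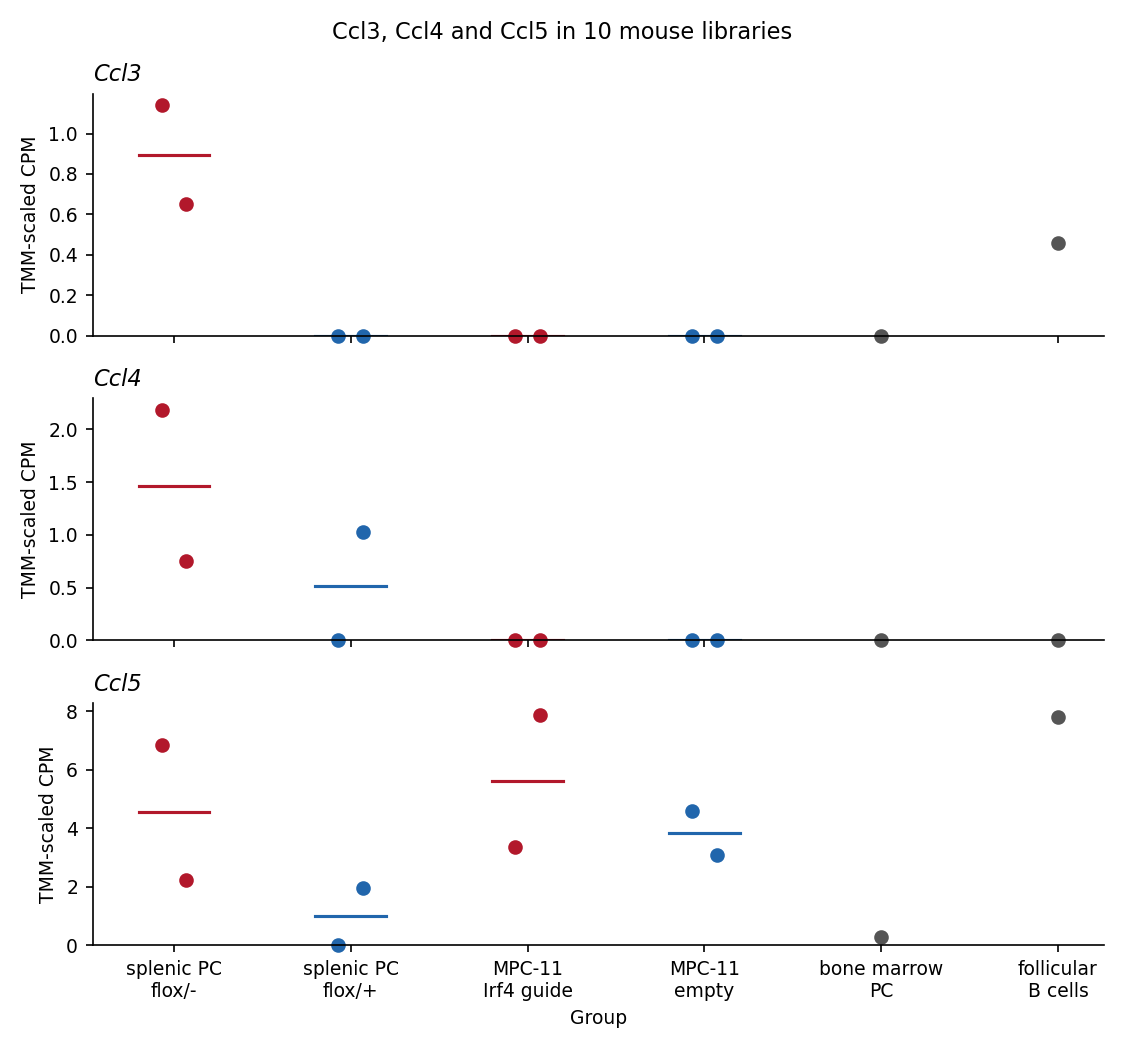
TMM-scaled CPM of Ccl3, Ccl4 and Ccl5 in the mouse libraries, with points for libraries and bars for means of 2; red marks Irf4 flox/- and Irf4 guide, blue flox/+ and empty vector, grey the single libraries of bone marrow plasma cells (PC) and follicular B cells. Ccl3 and Ccl4 are at 0 in every MPC-11 library, and Ccl5 reaches 7.88 CPM in MPC-11 and 7.79 CPM in follicular B cells.

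In the spleen, summed macrophage, T, NK and B cell markers were also higher in both flox/- libraries than in either flox/+ library. The chemokines and the macrophage sum were highest in flox/- library 1, the T, NK and B cell sums in flox/- library 2. Within flox/+, Ccl4 and Ccl5 had counts only in library b, where the macrophage sum was the lower. The macrophage and monocyte list came to 7537 and 632 CPM in the flox/- libraries and 513 and 195 CPM in the flox/+ libraries, and 12 and 11 of the 12 had counts with flox/- and 11 in each with flox/+. T cell markers summed to 230 and 523 CPM with flox/- and 95.6 and 144 CPM with flox/+. Of the 10 T cell markers 9 and 10 had counts with flox/-, but 5 and 6 with flox/+, where Cd8a, Cd8b1 and Bcl11b were at 0 in both libraries. Cd28, in the same list, went the other way, with 53.3 and 56.4 CPM with flox/- and 80.4 and 114 CPM with flox/+ (edgeR adjusted p = 0.386). Without Cd28 the T cell sums were 177 and 466 CPM with flox/- and 15.3 and 30.1 CPM with flox/+. NK cell markers summed to 55.9 and 135 CPM with flox/- and 14.8 and 22.0 CPM with flox/+. Of the 10 NK cell markers 5 and 9 had counts with flox/-, but 3 and 2 with flox/+. Prf1 made up most of the flox/+ sums, at 13.1 and 21.4 CPM, and stood at 19.4 and 43.2 CPM with flox/-. Gzma had 0 and 20 counts with flox/- and 6 and 7 with flox/+. B cell markers summed to 556 and 864 CPM with flox/- and 237 and 254 CPM with flox/+, and plasma cell markers to 36273 and 33540 CPM with flox/- and 79168 and 98928 CPM with flox/+. Jchain made up most of the plasma cell sums, at 31855 and 29097 CPM with flox/- and 70069 and 88270 CPM with flox/+. Of the 8 plasma cell markers 6 were lower with flox/- and 2, Prdm1 and Irf4, were higher (54.3% of all genes higher). Neutrophil markers stayed at or below 0.649 CPM in all 4. The part of these cells in the chemokine values was not tested, and in bulk libraries more cells of a type and more RNA per cell cannot be told apart.

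**Figure D5:**
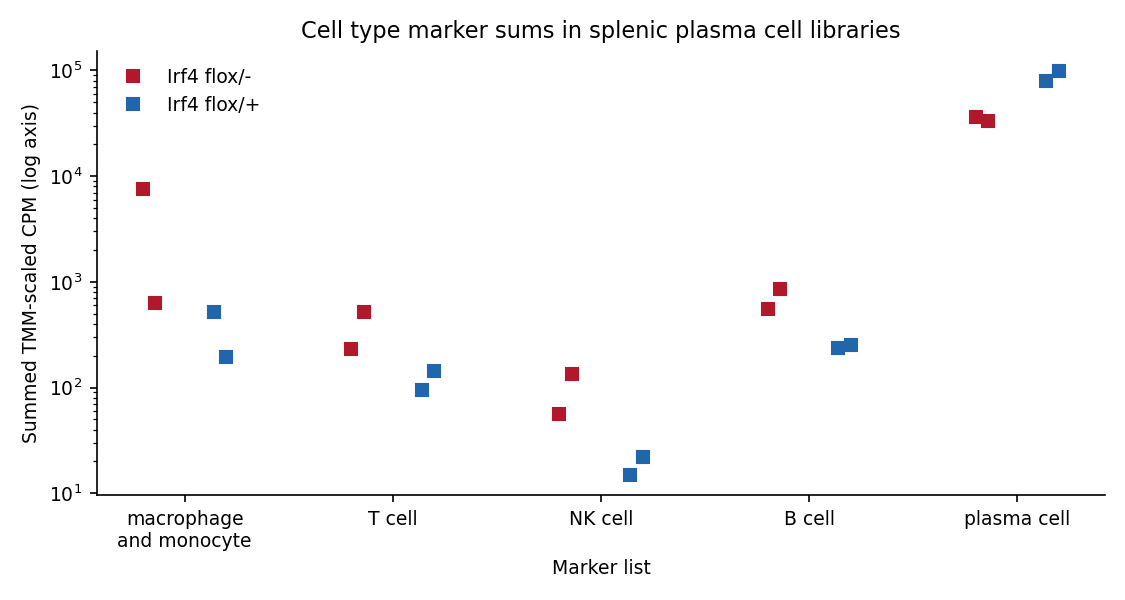
Summed TMM-scaled CPM (log axis) of marker lists of 5 cell types in the splenic plasma cell libraries, Irf4 flox/- (red) and Irf4 flox/+ (blue), each point a library. Macrophage, T, NK and B cell sums are higher in both flox/- libraries, and plasma cell sums, which are mostly Jchain, are lower.

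Receptors of the 3 chemokines were also measured in the spleen. Ccr3 stood at 65.9 and 4.45 CPM with flox/- and 8.02 and 2.57 CPM with flox/+ (edgeR adjusted p = 0.512) and Ccr1 at 3.57 and 0.499 CPM with flox/- and 0 in both flox/+ libraries, so Ccr1 entered the test only through the flox/- group. Ackr2 stood at 0 and 0.549 CPM with flox/- and 3.04 and 0 CPM with flox/+. Ccr3 and Ackr2 did not pass in either tool. In MPC-11, Ccr1 and Ccr3 had no counts, so the receptor CCR1 that MM.1S carried was not detectable there.

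Few other chemokines could be tested in the spleen. Of 18 other CC chemokines 3 were tested. Ccl6 stood at 20.7 and 1.35 CPM with flox/- and 1.38 and 0 CPM with flox/+. Ccl24 stood at 6.60 and 0 CPM with flox/- and 0 and 1.89 CPM with flox/+. For both, the groups overlapped and only flox/- library 1 stood above the flox/+ libraries (edgeR adjusted p = 0.539 and 0.878). Ccl25 had no counts with flox/+. Cxcl9 stood at 18.0 and 1.10 CPM and Cxcl16 at 57.7 and 1.55 CPM in the flox/- libraries and both at 0 in the flox/+ libraries. Like Ccl3, these 3 genes entered the test only through the group in which they are high, and no test is read for them. Cxcl10 stood at 9.78 and 3.10 CPM with flox/- and 4.24 and 2.49 CPM with flox/+ (edgeR adjusted p = 0.807). Of 12 other receptors tested, 8 were higher and 4 lower (median log2 fold change 1.37), against 54.3% of all genes higher. edgeR called 0, with 5 higher and 0 lower at an unadjusted p under 0.05 (8.63% and 3.85% of all genes), and DESeq2 called 5 higher (3.63% of all genes). Ccr6 and Cx3cr1 among these had no counts with flox/+. The others were the lymphoid homing receptor Ccr7 (17.6 and 32.3 CPM with flox/- and 2.30 and 3.52 CPM with flox/+), Cxcr5 (29.5 and 60.8 CPM with flox/- and 1.2 and 4.89 CPM with flox/+) and Cxcr6 (8.83 and 6.34 CPM with flox/- and 0.0921 and 0 CPM with flox/+). Cxcr6 had 1 and 0 counts with flox/+, so it too entered the test only through flox/-.

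The same lists read as follows in mouse. Of all genes tested in the spleen, 54.3% were higher with flox/-, whatever their p-value. In the spleen, 12 of 15 NF-kB genes were higher (median log2 fold change 0.94, against 0.09 over all genes), with Cd83, Icam1 and Nfkbiz having the smallest p-values (edgeR adjusted p = 0.275, 0.275 and 0.283). Of 14 tested immediate early genes 11 were higher (median 1.51). Of these, the nuclear receptor Nr4a2 and Atf3 had no count with flox/+, so the filter fixed their direction and no test is read for them. Among the others the phosphatase Dusp2 had the smallest p-value (edgeR adjusted p = 0.275). Of 14 transcription factors 12 were higher (median 1.03), led by Irf8, Irf7 and Batf (edgeR adjusted p = 0.275, 0.285 and 0.296). Irf4 itself is counted among the 12, at a log2 fold change of 0.12. Bone disease factors were higher in 6 of 6 tested. Of these, 3 (Spp1, Il1b and Tnf) had no count with flox/+ and were fixed in direction by the filter, so no test is read for them. The median was 3.33 with genes lacking counts in one group set to their bound against 3 counts, and 5.36 as fitted. Among the other bone disease factors Anxa2 had the smallest p-value (edgeR adjusted p = 0.260). Over the 8 lists, 71 genes were tested in the spleen and 0 passed in edgeR. At an unadjusted p under 0.05 there were 32 higher and 0 lower (all genes 8.63% and 3.85%), and DESeq2 put 18 higher and 0 lower (all genes 3.63% and 1.69%). In 11 of the 71 the flox/+ group had no count. Of the 60 others 21 were higher at an unadjusted p under 0.05 and 11 in DESeq2, with 0 lower in each. Some of the 60 also entered the test only through flox/-, such as Cxcr6 (1 and 0 counts with flox/+) and Maf (2 and 4). The effect of the filter is therefore not wholly removed from these counts.

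In MPC-11, 43 list genes were tested and 0 passed in edgeR, with 8 higher and 4 lower at an unadjusted p under 0.05 (all genes 3.49% and 2.56%). In 2 of the 43, Fos and Cxcl10, a group had no count, so the filter fixed their direction. Without these, 7 were higher and 3 lower, and Irf4, the target of the guide, is among the lower. DESeq2 (all genes 1.03% and 0.469%) called 3 higher, Fos, Jund and the interferon regulatory factor Irf1, and 1 lower, the NF-kB inhibitor Nfkbie. Fos had no counts with the empty vector and entered the test only through the guide group. Irf1 stood at 136 and 99.5 CPM with the guide and 52.1 and 41.9 CPM with the empty vector (edgeR adjusted p = 0.498, DESeq2 adjusted p = 0.0102). Nfkbie stood at 3.72 and 4.41 CPM with the guide and 17.2 and 13.7 CPM with the empty vector (edgeR adjusted p = 0.520, DESeq2 adjusted p = 0.0422). Nfkbia and Birc3 had log2 fold changes of 0.70 and 0.62, Junb one of 0.95 and Spib one of 1.43 (edgeR adjusted p = 0.779, 0.945, 0.592 and 0.969). Among other chemokines, Ccl25 was tested (edgeR adjusted p = 1.00), as was Cxcl10, which had no counts with the guide, and among other receptors Ccr6, Ccr10 and Ccr7 had the smallest p-values (0.657, 0.774 and 0.806). Lta, Vegfa and Tgfb1 were the bone disease factors tested, with log2 fold changes of 0.29, 0.17 and 0.06.

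Across the mouse groups, Ccl5 ran from 7.79 CPM in follicular B cells (exact 95% Poisson interval 6.94 to 8.71) through 5.63 ± 3.18 CPM in MPC-11 with the guide, 4.55 ± 3.25 CPM in splenic flox/- plasma cells, 3.85 ± 1.06 CPM in MPC-11 with the empty vector and 0.986 ± 1.39 CPM in splenic flox/+ plasma cells (SD, n = 2 each) to 0.272 CPM in bone marrow plasma cells (3 counts, interval 0.0562 to 0.796). Levels were not tested between MPC-11 and the spleen, and with so few libraries a group this order is a description only. Scaled to library size alone, follicular B cells stood at 14.5 CPM, MPC-11 at 8.68 CPM with the guide and 6.40 CPM with the empty vector, and splenic plasma cells at 3.72 CPM with flox/- and 0.426 CPM with flox/+, so MPC-11 with the empty vector and splenic flox/- plasma cells changed places. In follicular B cells T cell markers summed to 113 CPM, with 10 of 10 detected. In bone marrow plasma cells they summed to 121 CPM, with 7 of 10. Both sums include Cd28, and the part of T cells in the Ccl5 values was not tested.

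The effect of the genotype on Ccl5 in splenic plasma cells minus the effect of the guide in MPC-11 was 1.64 ± 2.04 log2 units (SE, 8 libraries; edgeR adjusted p = 1.00), so a difference between them was not shown. For Ccl3 and Ccl4 no such difference can be formed, since all MPC-11 libraries were at 0. Over the 10 mouse libraries the nearest profiles were those of Wdr26, Zfp655, Hnrnpa3, Ube2r2 and Nrp for Ccl3 (0.20 to 0.22 log2 units, where the profile of Ccl3 itself spread by 0.38), of Ccnl1, Spopl, Kin, Gm7030 and Upf3b for Ccl4 (0.25 to 0.31, own spread 0.57) and of Nap1l1, Haus8, Pdlim7, Tada3 and Acp5 for Ccl5 (0.47 to 0.53, own spread 1.04). The counts behind them are sparse, and no likeness is read from these distances.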

How the data were processed

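Per the labels' protocols, purified RNA was copied to cDNA and prepared with a Nextera kit, which does not mark the strand. Subread 1.6.0, limma, featureCounts and the builds hg38 and mm10 appear in the submitters' processing notes, with no annotation or strand setting. The authors deposited counts per gene without normalisation, and log2 FPKM values per library whose offset is not stated. Entries without a symbol (at most 0.306% of a library's counts) were left out. The flox/+ columns of the mouse table share a name and are called a and b.

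Every comparison used a separate fit over its 4 libraries (edgeR 4.0.16, R 4.3.3): TMM, filterByExpr (minimum count 10), quasi-likelihood F test, Benjamini-Hochberg over all genes tested, threshold 0.05. The SE is the log2 fold change over the square root of F. 95% intervals use edgeR's degrees of freedom. Alternatives were DESeq2 1.42.0, other scalings, no filter, a replicate block, leaving out libraries and limma 3.58.1 on log2 FPKM. The fits were tested on simulated counts. Poisson intervals and floors cover counting error only.

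The members and gene lists were chosen with earlier results of these data known. Named are the members, copies, receptors, the 5 nearest profiles, and per list the genes past the edgeR test or else the 3 with the smallest p. Genes that DESeq2 called, BCL6 and the named cell type markers were added after values were seen. The promoter is RefSeq's, and its motifs were set after longer forms had been searched. Some receptor and marker results are not reported here.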

Additional observations from a re-analysis of the deposited data

Results flagged for a closer look

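Follicular B cells, a single library that enters no test, held Ccl5 at 307 counts and Ccl3 at 18 counts, both above the 3 counts that a count of 0 allows. The same library had counts of 10 of 10 T cell markers and of 8 of 10 NK cell markers, and their part in these values was not tested.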

How the results depend on the processing

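In MM.1S the log2 fold changes of CCL3, CCL4 and CCL5 stayed within -3.34 to -3.26, -2.63 to -2.51 and -0.11 to -0.05 under every scaling, filter, tool and replicate block tried. Leaving out one library gave -3.69 to -2.95, -3.11 to -2.11 and -0.42 to 0.22. None of the mouse members passed under any alternative. With one library left out, splenic Ccl4 ranged from 0.52 to 7.64 and Ccl5 from 1.2 to 9.27, and the difference in Ccl5 effects from 0.59 to 9.28, the highest being without flox/+ library b. Ccl5 in MPC-11 ranged from -0.19 to 1.06 when one library was left out, the negative value being that without guide library 2. Without splenic flox/- library 1, Ccl3 was lost to the filter and gave no value. Ccl3 and Ccl4 in MPC-11 gave none because they had no counts.

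Counts of called genes depended on the method. In the spleen edgeR called 0 and DESeq2 632. In MPC-11 edgeR called 2, but 0 with library size alone, 32 without a filter, 160 with DESeq2 and 1 to 37 with one library left out (1 and 24 without empty vector libraries 1 and 2, 37 and 25 without guide libraries 1 and 2). In MM.1S it called 1, but 289 without a filter, 371 with DESeq2 and 0 to 966 with one library left out (966 and 117 without empty vector libraries 1 and 2, 2 and 0 without guide libraries 1 and 2). The cause was not tested. With the replicate number as a block, edgeR called 0 genes in MPC-11 and 208 in MM.1S, though same-numbered libraries deviated together with r = -0.08 in MPC-11 and 0.09 in MM.1S across genes, so the numbers are not known to pair them. No paired analysis was possible in the spleen because the flox/+ columns carry no separate numbers. The mouse Ccl3 and Ccl4 values rest on at most 44 counts a library.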
